A study of Mus musculus with 12 samples.

Results

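Sox2, Ntrk3 and Ppp2r2c are 3 developmental and neural genes whose promoter regions carried trimethylated lysine 4 of histone H3 (H3K4me3) in wild-type (WT) mouse embryonic fibroblasts, and lacked it in the peak list of at least 1 knockout (KO) condition. They were chosen by exactly that measurement, at places that also carried trimethylated lysine 27 (H3K27me3), so presence in the lists is a description here and not a finding. All peaks overlapping 3 windows of the mouse build mm9 were taken, one of 20 kb on chromosome 3 at Sox2, one of 25 kb on chromosome 7 at the start of Ntrk3, and one of 30 kb on chromosome 5 at the start of Ppp2r2c. The windows held 46 of the 128880 peaks in the 8 lists, of which 9 were H3K4me3 peaks and 37 were H3K27me3 peaks.

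The libraries came from primary fibroblast cultures on a hybrid 129/B6 background. The 4 conditions were lincRNA-p21-/- (KO) cells given 0.5 mM doxorubicin for 24 h, KO cells given mock treatment, lincRNA-p21+/+ (WT) cells given the same doxorubicin treatment, and WT cells given mock treatment. The dose is printed as labelled; its unit was not checked against another source and may be a slip for micromolar. Each mark had 1 chromatin immunoprecipitation (ChIP-seq) library per condition, so nothing below has a replicate check and no p-value was computed, and how many embryos gave the cells is not given in the sources used here. A listed peak has a score, which the file headers define as 10 times the negative log10 of the peak caller's p-value, and no list held a score under 80.

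H3K4me3 marks promoters that are active or poised, and H3K27me3 is laid down by Polycomb repressive complex 2 at genes kept silent. Promoters of developmental regulators often carry both, a state called bivalent, which is best known from embryonic stem cells. LincRNA-p21 is a long noncoding RNA that p53 induces after DNA damage, and doxorubicin causes such damage. In bulk chromatin, both marks on the same nucleosomes and each mark in different cells of the culture cannot be told apart, and neither can fewer marked cells and less mark per cell.

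The sequence before the annotated start is shown because bivalent promoters are typically rich in CG dinucleotides, and these are in capitals. RefSeq promoter sequences on build GRCm38.p6 matched 2 of the 3 genes, and the 250 bases upstream of the start are printed 5′ to 3′ on the plus strand, on chromosome 3 for Sox2 and on chromosome 5 for Ppp2r2c. As that build is not the build of the peaks, the sequences were not placed within them.
Sox2: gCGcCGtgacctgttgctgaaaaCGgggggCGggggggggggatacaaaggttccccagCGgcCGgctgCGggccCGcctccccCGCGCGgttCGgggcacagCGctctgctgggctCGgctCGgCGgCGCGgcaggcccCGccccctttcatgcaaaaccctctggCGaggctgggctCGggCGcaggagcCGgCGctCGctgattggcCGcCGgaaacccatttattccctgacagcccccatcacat
Ppp2r2c: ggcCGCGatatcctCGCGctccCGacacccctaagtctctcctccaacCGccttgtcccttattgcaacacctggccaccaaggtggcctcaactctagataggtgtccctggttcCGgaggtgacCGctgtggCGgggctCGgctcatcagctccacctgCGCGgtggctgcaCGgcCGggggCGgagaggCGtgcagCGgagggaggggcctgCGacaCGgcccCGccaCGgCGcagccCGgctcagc

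The Sox2 stretch held 27 CG dinucleotides at a G and C content of 72.0%, and the Ppp2r2c stretch held 23 at 69.6%. Over the 32851 promoters of the table the medians were 6 CG dinucleotides and 52.4%. At least as many CG dinucleotides as at Sox2 were found in 8.6% of all promoters, and at least as many as at Ppp2r2c in 13.3%. The GC box GGGCGG, searched on both strands, occurred 2 times at Sox2 and 1 time at Ppp2r2c, and in 32.7% of all promoters. The CCAAT box, searched likewise, occurred 1 time at Sox2 (as ATTGG) and 0 times at Ppp2r2c, and in 33.8% of all promoters. These matches describe the letters of the printed window only.

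Sox2 encodes a transcription factor of pluripotent cells and neural progenitors. The KO doxorubicin list had no H3K4me3 peak in its window, and the KO mock list had a peak of 2156 bp with a score of 317 from 34548464 to 34550619. The WT doxorubicin list had a 2857-bp peak with a score of 858 from 34547423 to 34550279, and the WT mock list a 2980-bp peak with a score of 910 from 34548188 to 34551167. The peak was thus missing from 1 list of the 4, the one that combines the knockout with doxorubicin. A separate 832-bp peak at the edge of the window, from 34541155 to 34541986, was in the WT doxorubicin list alone with a score of 107, the lowest of the 9 H3K4me3 peaks.

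Ntrk3 encodes TrkC, the receptor tyrosine kinase for neurotrophin-3. Its window had no H3K4me3 peak in the KO doxorubicin list and a 1544-bp peak with a score of 387 in the KO mock list, from 85722455 to 85723998. The score was 2008 in the WT doxorubicin list, where the peak ran over 2778 bp from 85721590 to 85724367, and 876 in the WT mock list, where it ran over 2881 bp from 85721498 to 85724378. The pattern of presence was the same as at Sox2.

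Ppp2r2c encodes a regulatory B subunit of protein phosphatase 2A that is found mainly in brain. Neither the KO doxorubicin list nor the KO mock list had an H3K4me3 peak in its window. In the WT doxorubicin list a 2869-bp peak from 37259022 to 37261890 had a score of 3100, a value that 2995 peaks of that list share. The WT mock list had a 2729-bp peak with a score of 1548 from 37259203 to 37261931. Here the mark was unlisted in KO cells with and without doxorubicin.

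The 3 promoters were not the only places with this pattern. Of the 16477 WT doxorubicin H3K4me3 peaks 11.9% were absent in KO doxorubicin cells, and of the 2389 with H3K27me3 in all 4 conditions 41.7% were (95% exact Clopper-Pearson interval 39.7 to 43.7). Of the 14897 WT mock peaks 9.32% were absent in KO mock cells, and of the 1965 with H3K27me3 in all 4 conditions 27% were (25.1 to 29.0). All 3 promoters were absent in the KO doxorubicin list and 1 of the 3 in the KO mock list, and as absence chose them, nothing is read from these counts. The intervals cover counting error over peaks only, and neighbouring peaks are not independent. Regions made by joining overlapping H3K4me3 peaks of the 4 lists numbered 16628, and 668 of them had a peak in both WT lists, none in at least 1 KO list, and H3K27me3 in all 4 conditions.

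**Figure D1:**
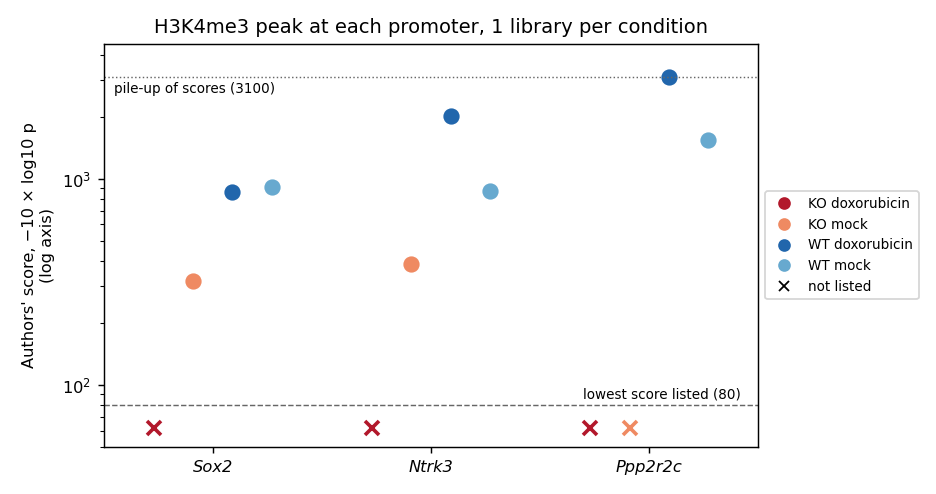
Score of the H3K4me3 peak at each promoter (y axis, 10 times the negative log10 of p, log scale) by gene (x axis) and condition (colours), 1 library per point; crosses below the dashed line mark lists without a peak. The KO doxorubicin crosses stand at all 3 genes and the KO mock cross at Ppp2r2c, while the 6 WT points lie between 858 and 3100.

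The lists differed in their scores as a whole. The median H3K4me3 score was 2141 in the KO doxorubicin list and 1162 in the KO mock list, against 1526 in the WT doxorubicin list and 1512 in the WT mock list. Scores of different lists are therefore set side by side as values and not as a change. The list without any of the 3 promoters had the highest median score of the 4. The lists also differed in length, and the medians were not adjusted for it. The KO doxorubicin list held 15095 H3K4me3 peaks and the KO mock list 14326, against 16477 in the WT doxorubicin list and 14897 in the WT mock list. Read depth is unknown here, and its part in the absences was not tested.

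Some of the peaks flanking Ppp2r2c and Ntrk3 were listed in KO cells. The nearest H3K4me3 peak on one side of Ppp2r2c, 36.8 kb away, had a score of 2230 in the KO doxorubicin list and 1736 in the WT doxorubicin list. On the other side the nearest WT doxorubicin peak, 60.7 kb away from 37322550 to 37323276, had a score of 118 and was not listed in KO doxorubicin cells. Beyond it, 117 kb away, a peak had a score of 2427 in the KO doxorubicin list, against 1069 at the same place in the WT doxorubicin list. In mock cells these neighbours had scores of 935 and 880 in the KO list, against 1471 and 1091 in the WT list. The peak 202 kb from Ntrk3 had a score of 3100 in the KO doxorubicin list and 3064 in the WT doxorubicin list. Within 500 kb of Ppp2r2c, 15 of the 20 other WT doxorubicin peaks and 13 of the 14 other WT mock peaks were also listed in the KO cells of the same treatment. Around Ntrk3 the count was 4 of 5 for each treatment. The unlisted neighbours of Ppp2r2c thus numbered 5 of 20 with doxorubicin and 1 of 14 in mock cells, beside 11.9% and 9.32% of all WT peaks. Adjacent WT doxorubicin peaks were counted singly. An unlisted pair ran from 36894220 to 36894801 and from 36894844 to 36896436, and a listed pair from 36806663 to 36807645 and from 36807742 to 36809369. Of the neighbours at H3K27me3 in all 4 conditions, 2 of 4 near Ppp2r2c were absent in KO doxorubicin cells and 1 of 3 in KO mock cells. Near Ntrk3 they were 1 of 2 with doxorubicin and 0 of 1 in mock cells. Over all WT peaks with H3K27me3 in all 4 conditions the shares absent were 41.7% with doxorubicin and 27% in mock cells. The unlisted neighbours with the highest score were on chromosome 5 from 37632632 to 37634122 (score 783 in the WT doxorubicin list, at H3K27me3 in all 4 conditions) and, near Ntrk3, on chromosome 7 from 86027029 to 86028020 (114).

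Sox2 stood in a long stretch without other H3K4me3 peaks. The KO doxorubicin list had none over 1670 kb around the gene, and its nearest peak was 566 kb away. In WT cells just 1 other peak lay within 500 kb, outside the window, from 34562862 to 34564010 with a score of 328 in the WT doxorubicin list and from 34562429 to 34564200 with a score of 219 in the WT mock list. It had no counterpart in either KO list, and it lay under H3K27me3 in all 4 conditions, so that its pattern was that of Ppp2r2c and not that of the Sox2 promoter. In the RefSeq table of GRCm38.p6, which gives names only here, Sox2 overlaps the noncoding gene Sox2ot and lies between the coding genes Dnajc19 and Atp11b.

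**Figure D2:**
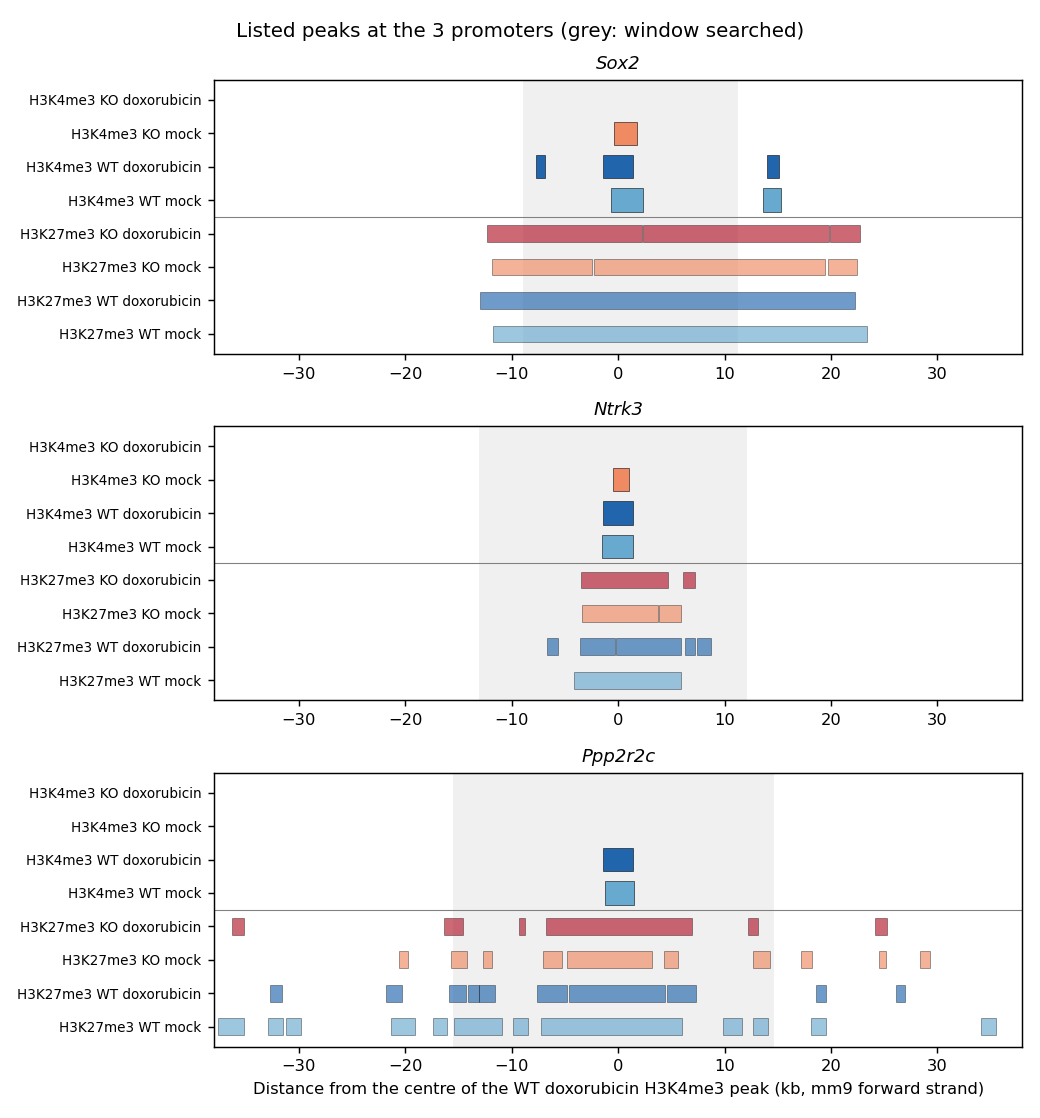
Listed peaks of both marks (rows) around each promoter, by distance in kb from the centre of the WT doxorubicin H3K4me3 peak (x axis); bars are peaks drawn to scale, in the window searched (grey) and up to 20 kb beyond it. H3K4me3 bars are missing from the KO doxorubicin row at all 3 genes, while H3K27me3 bars lie over the centre in every condition.

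The peak caller's numbering bears on calls left out of the lists. In all 8 lists the number in a peak's name rose with position along every chromosome, and 8.44% of the numbers up to the highest were missing from the KO doxorubicin H3K4me3 list and 9.56% from the KO mock list. If a missing number stands for a call left out of the list, 2 flanking peaks with consecutive numbers had no numbered call between them. Signal too weak for the peak caller to number, at settings not given here, cannot be seen this way. At Ntrk3 the flanking peaks of the KO doxorubicin list were numbers 13623 and 13624, over a stretch of 2930 kb. At Ppp2r2c they were 11339 and 11340 in the KO doxorubicin list and 10927 and 10928 in the KO mock list, both over 157 kb. Sox2 differed, with flanking numbers 9333 and 9338 in the KO doxorubicin list and thus 4 missing numbers within the 1670 kb. On the same condition, a call at its promoter could have been left out of the list. Why numbers are missing is not given in the sources used here. Of the 996 WT doxorubicin peaks at H3K27me3 that had no KO doxorubicin peak, 640 (64.3%) had no missing number between their flanks. In mock cells 265 of 531 (49.9%) had none.

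H3K27me3 covered the promoter peaks in every condition, in KO cells as in WT cells. Of the WT doxorubicin H3K4me3 interval it covered 100% at Sox2 and Ppp2r2c in all 4 lists. At Ntrk3 it covered 100% in KO doxorubicin, KO mock and WT mock cells and 97.0% in WT doxorubicin cells, where a short gap between a pair of H3K27me3 peaks fell inside the interval. That the places carried H3K27me3 was part of how they were chosen, but its length and score were not.

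At Sox2 the domain filled nearly the whole window, with 99.3% of it in the KO doxorubicin list, 99.2% in the KO mock list and 100% in both WT lists. It was listed as a single peak in WT cells, of 35280 bp with a score of 873 in the doxorubicin list and of 35148 bp with a score of 785 in the mock list. In KO cells it was divided. The KO doxorubicin list had peaks of 14520 bp (score 2395) and 17487 bp (1477) in the window, and the KO mock list had peaks of 9434 bp (1622) and 21716 bp (1562), each with a further peak beyond the window. The H3K27me3 peak over the Sox2 promoter ranked 106 of 17828 in the KO doxorubicin list and 625 of 16580 in the KO mock list, against 1235 of 17517 in the WT doxorubicin list and 1396 of 16160 in the WT mock list. In the same order, 99.41%, 96.23%, 92.95% and 91.36% of the list had a lower score. With 1 library per condition, and a domain divided in the KO lists and single in the WT lists, these places cannot be read as a change.

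At Ntrk3 H3K27me3 covered 9.31 kb of the window in the KO doxorubicin list and 9.25 kb in the KO mock list, against 12.7 kb in the WT doxorubicin list and 10.1 kb in the WT mock list. The highest score was 2029 in KO doxorubicin and 2172 in KO mock cells, against 1085 in WT doxorubicin and 1705 in WT mock cells. In WT doxorubicin cells the promoter interval was shared by adjacent peaks with scores of 580 and 1085. The median H3K27me3 score was 141 in the KO doxorubicin, 145 in the KO mock, 144 in the WT doxorubicin and 155 in the WT mock list. H3K27me3 scores of different lists are likewise set side by side as values and not as a change. The WT doxorubicin list split the domain into 5 peaks, of which those at the edges had scores of 87.4 to 144.

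At Ppp2r2c the covered length was 16.1 kb in the KO doxorubicin list and 14.8 kb in the KO mock list, against 18.1 kb in the WT doxorubicin list and 22.4 kb in the WT mock list. A main peak lay over the promoter in each list, with scores of 2018 in KO doxorubicin and 3203 in KO mock cells, against 1924 in WT doxorubicin and 2046 in WT mock cells. The main peak ranked 226 of 17828 in the KO doxorubicin list and 2 of 16580 in the KO mock list. In the WT doxorubicin list it ranked 194 of 17517, and in the WT mock list 149 of 16160. Scores of 3100 or more were held by 20 H3K27me3 peaks in KO doxorubicin and 59 in KO mock cells. In WT doxorubicin cells 15 peaks had such scores, and in WT mock cells 6. With 1 library per condition these ranks are not read as a change. The window also held smaller H3K27me3 peaks, with scores of 80.5 to 416, of which there were 3 in the KO doxorubicin list and 5 in the KO mock list, against 5 in the WT doxorubicin list and 4 in the WT mock list.

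The covered length in KO over that in WT was 0.993 at Sox2, 0.732 at Ntrk3 and 0.888 at Ppp2r2c in doxorubicin-treated cells, and 0.992, 0.919 and 0.663 in mock-treated cells in the same order of genes. Over all H3K27me3 peaks the KO doxorubicin list covered 35.9 Mb and the WT doxorubicin list 39.0 Mb, a ratio of 0.922, and the KO mock list 36.3 Mb and the WT mock list 48.0 Mb, a ratio of 0.756. The 3 windows thus lay on both sides of the whole-list ratio. At Sox2 the WT lists filled the window, so that a ratio above 1 was not possible there, and with 20 kb added on both sides the ratio was 0.985 with doxorubicin and 0.966 in mock cells. The WT mock list had wider H3K27me3 peaks than the others, with a median of 1310 bp in the KO doxorubicin, 1391 bp in the KO mock, 1475 bp in the WT doxorubicin and 2015 bp in the WT mock list. The part of that list in the mock ratios was not tested.

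**Figure D3:**
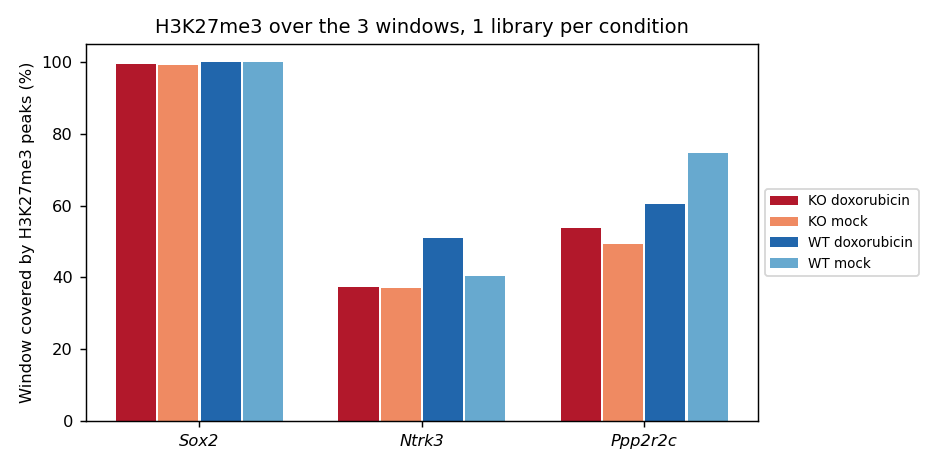
Share of each window covered by H3K27me3 peaks (y axis, %) by gene (x axis) and condition (colours), 1 library per bar and no error bars. The Sox2 bars all reach 99.2% or more, and at Ntrk3 and Ppp2r2c the KO bars are below the WT bars of the same treatment.

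Where Sox2 and Ntrk3 were still listed in KO mock cells, the H3K4me3 peak was narrower than in WT mock cells. The width in KO mock over that in WT mock was 0.723 at Sox2 and 0.536 at Ntrk3. Of the shared peaks with H3K27me3 in all 4 conditions 92.9% were narrower in KO mock cells, and of those without it 84.3% were. The median ratio was 0.763 (quartiles 0.646 and 0.861) over 1434 shared peaks with H3K27me3 in all 4 conditions, and 0.866 (quartiles 0.772 and 0.952) over 11363 shared peaks without H3K27me3. The Sox2 value lay between the quartiles of its class and the Ntrk3 value below the lower one. Over whole lists the median H3K4me3 width was 1777 bp in KO doxorubicin and 1724 bp in KO mock cells, against 1734 bp in WT doxorubicin and 2029 bp in WT mock cells, so that the WT mock list stood apart. The KO mock list had the lowest median score of the 4. The part of either in the width ratios was not tested.

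The pattern of Sox2 and Ntrk3, with H3K4me3 in both WT lists and KO mock but not KO doxorubicin, was found in 216 joined regions, of which 173 (80.1%) had H3K27me3 in all 4 conditions. That of Ppp2r2c, with H3K4me3 in both WT lists and neither KO list, was found in 590, of which 372 (63.1%) did. The reverse order of treatment, with H3K4me3 missing in KO mock but not in KO doxorubicin cells, was found in 517 regions, of which 123 (23.8%) did. Of the 13107 regions present in all 4 lists 9.67% did. These shares were not matched by score. The median WT doxorubicin score was 507 over the 173 regions and 356 over the 372, against 1526 over all peaks of that list. The part of score in the shares was not tested.

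By WT doxorubicin score Ppp2r2c ranked 1, Ntrk3 ranked 4 and Sox2 ranked 71 of the 996 peaks absent in KO doxorubicin cells at H3K27me3. Ppp2r2c also ranked 1 of the 531 absent in mock cells. The windows had been picked with such ranks known, and each promoter is itself among the absent peaks counted here because absence chose it, so the shares are descriptions with no interval. Among the 271 WT doxorubicin peaks at H3K27me3 with a score at least that of Ntrk3, 4 were absent in KO doxorubicin cells (1.48%), and among the 910 with a score at least that of Sox2, 71 were (7.80%). Ppp2r2c was the single absent peak of the 78 with a score of 3100 or more (1.28%). In mock cells it was the single absent peak of the 184 with a score at least its own (0.543%).

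In both treatments the share absent was largest in the lowest bin of WT scores and under 10% from bin 5 upward. When the WT doxorubicin list was divided into 10 bins by score, Sox2 fell in bin 4, where 20.9% of 388 peaks at H3K27me3 and 0.609% of 1149 peaks without H3K27me3 were absent in KO doxorubicin cells. Ntrk3 fell in bin 7, where 4 of 123 (3.25%) and 0 of 1460 were. Ppp2r2c fell in bin 9, which held all 2995 peaks tied at a score of 3100, so that the bins were not equal in size. There 1 of 64 peaks at H3K27me3 (1.56%) and 0 of 2843 without H3K27me3 were absent. That 1 peak is Ppp2r2c itself, and as each promoter was chosen for its absence and its H3K27me3, nothing is read from the difference between the classes in these bins. In the WT mock list Sox2 and Ntrk3 fell in bin 4, where 1 of 264 peaks at H3K27me3 (0.379%) was absent in KO mock cells and both promoters were listed.

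**Figure D4:**
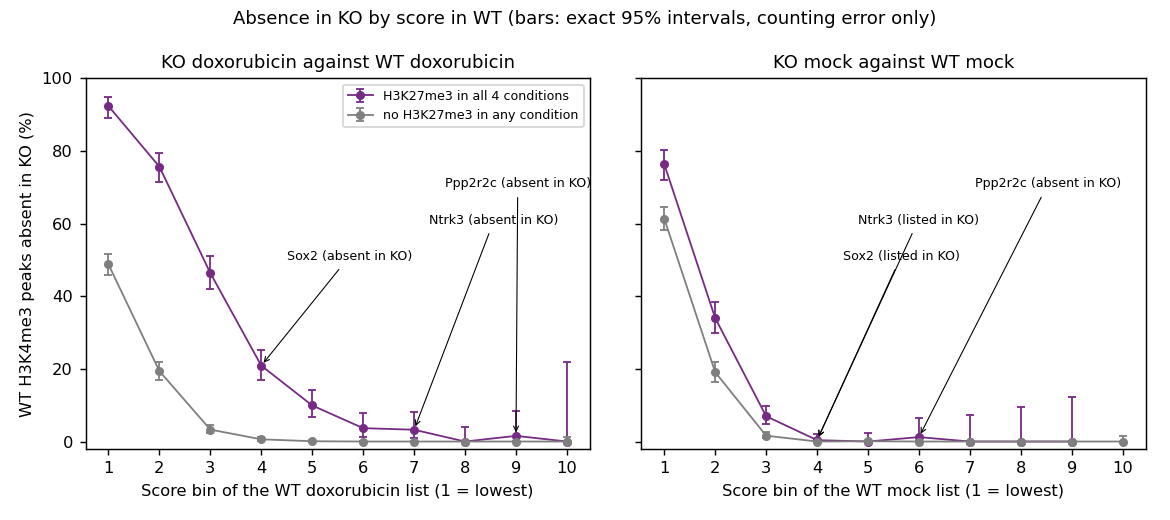
Share of WT H3K4me3 peaks absent in the KO list of the same treatment (y axis, %) by score bin of the WT list (x axis, bin 1 lowest; bins under 10 peaks left out), for peaks with H3K27me3 in all 4 conditions and with none; bars are exact 95% intervals and arrows mark the bins of the 3 promoters, which are counted in them. Sox2 stands where 20.9% were absent with doxorubicin, and Ntrk3 and Ppp2r2c where 3.25% and 1.56% were. As absence chose the promoters, nothing is read from the intervals of the bins that hold them.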

How the data were processed

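The authors' deposited files are 1 peak list for each of the 8 ChIP libraries, and the score in them is 10 times the negative log10 of a p-value, per the file headers. Per the submitters' processing notes, the build was mm9 and the tools were Bowtie 0.12.7 and MACS 1.4.2, with settings not given in the sources used here. Read depth is unknown, since the lists hold no counts. The 4 input libraries and the deleted locus were not analysed here.

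Peaks were compared by an overlap of at least 1 bp, and absent means without such a peak in the compared list. Starts were taken to count from 0 and are printed counting from 1. The 3 genes and lists were chosen with earlier results of these data known. The windows were named by gene as given, and other genes and fibroblast markers were not placed, since no mm9 annotation was used. Overlap rules were checked on simulated data built from 16477 peaks, and 6 of 6 gave the number put in. Besides the 3 genes, the text names for each the 3 regions with the same presence over the H3K4me3 lists, H3K27me3 in all 4 conditions and the closest WT doxorubicin score percentile, by position. Tables were handled with pandas 2.3.3 and numpy 2.4.6 under Python 3.11.15, intervals came from scipy 1.17.1, and figures from matplotlib 3.10.9.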

Additional observations from a re-analysis of the deposited data

How the results depend on the processing

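Whether a list had an H3K4me3 peak at Sox2, Ntrk3 or Ppp2r2c was counted again with 50% of the peak required in the window, a score of at least 100, equal numbers of top peaks, or overlap with the strongest WT doxorubicin peak, and all 12 counts stayed at 3, 3 and 2 lists. None of these settings can add a peak to a list that lacks one, and the lowest score of the promoter peaks was 317. The genes were also chosen by this presence, so nothing is read from the unchanged counts. The 24 alternative ratios of H3K27me3 cover, with wider windows, joined peaks, a score of at least 100 or equal numbers of top peaks, and the 5 alternative counts of regions sharing the pattern (558 to 888, against 668), moved by 1.5 times or less. That margin is wide beside main ratios of 0.663 to 0.993. At Ppp2r2c with doxorubicin the ratio was 0.799 with the wider window and 0.962 with joined peaks, against 0.888. Its side of the whole-list ratio of 0.922 thus depended on the setting, and the whole-list ratio was not computed with joined peaks. The share of WT doxorubicin peaks at H3K27me3 absent in KO doxorubicin cells was 49.3% when 50% of the peak had to be covered, 44.0% at a score of at least 100, 36.9% with equal numbers of top peaks and 39.4% with H3K27me3 of the same condition alone, against 41.7%. In mock cells the values were 33.1%, 29.7%, 22.6% and 24.3% in the same order, against 27%. The causes were not tested. With 1 library per condition, no difference here can be set against a spread between cultures, and no peak under a score of 80 could be seen.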

Other observations

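The regions most like each promoter are given by mm9 position. They had the same presence over the 4 H3K4me3 lists, H3K27me3 in all 4 conditions, and the closest place by score in the WT doxorubicin list. For Ppp2r2c, scored at 3100, the closest region began at 137949583 on chromosome 4 and ended at 137952822, and its WT doxorubicin score was 2379. The next had scores of 1811 (chromosome 2, 162484906 to 162487478) and 1705 (chromosome 6, 126592773 to 126596093). For Ntrk3, scored at 2008, the closest region had a score of 1988 (chromosome 18, 67292330 to 67294383), and the next had 1800 (chromosome 5, 102091867 to 102095118) and 2382 (chromosome 4, 21604938 to 21607403). For Sox2, scored at 858, a region of the same rounded score ran between 47003668 and 47005191 of chromosome 4. Regions of chromosome 8 (15010728 to 15012566, score 829) and chromosome 7 (19510622 to 19512089, score 904) came next. Likeness was measured in 1 list of 16477 peaks, and it says nothing on shared function or control.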
